A study of Homo sapiens with 16 samples.

Results

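The mitosis and spindle genes described here are 42 genes chosen by name, by their GENCODE v29 symbols, out of 58295 genes in the deposited tables. They encode the kinases and cyclins that start mitosis, the spindle checkpoint, the machinery of anaphase, the chromosomal passenger complex, kinetochore and centromere proteins, spindle motors, and proteins of the midzone and of cytokinesis, with FOXM1, MKI67 and TOP2A. All 42 passed the filter on low counts and were tested. The smallest estimated count of any of them in any library was 25, for CDC25C.

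The libraries came from JSL1, a clone of Jurkat, an established line of leukemic human T cells. Wild-type JSL1 cells (WT) were compared with a line edited by CRISPR-Cas9 so that HDAC7 is made without exon 9 (dE9) and with a line edited so that HDAC7 includes it (iE9). The product of HDAC7 is a histone deacetylase of class IIa, and the study asked what the splicing of exon 9 changes in the cell. Each line was kept in growth medium or received the phorbol ester PMA (phorbol myristate acetate) at 20 ng/mL, an activator of protein kinase C, and the sample labels put both conditions at 48 h, although the design text describes the unstimulated cells as time zero. There were 2 WT, 3 dE9 and 3 iE9 libraries in each condition, 16 in all. The labels do not say whether an edited line is a single clone or whether libraries came from separate cultures, so the tests see no more than the variation among these libraries, and that variation may be technical.

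Mitotic genes are transcribed late in the cell cycle. In resting or G1 cells the DREAM complex, in which the MuvB core is joined by the pocket protein p130 or p107 and a repressor E2F, holds many of them off through a short promoter element called the cell cycle homology region (CHR). In S phase and G2 the MuvB core joins B-MYB and then FOXM1, and the same genes are switched on, often together with the factor NF-Y bound at CCAAT boxes. Their transcripts are therefore abundant in dividing cells such as growing leukemia lines. In RNA from a whole culture, fewer cells in late cell cycle phases and less RNA of these genes per cell cannot be told apart.

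Libraries held 14536537 to 21888896 estimated counts. The share of counts from mitochondrial genes was higher with PMA in every line, at 3.48% and 3.75% unstimulated and 6.04% and 5.76% with PMA in WT and at 3.0% to 3.69% and 5.2% to 6.39% in dE9. In iE9 it was 9.17%, 4.14% and 3.85% unstimulated and 12.81%, 5.98% and 5.67% with PMA, highest in the libraries numbered 1. The part of this share in the PMA results was not tested. Of 12 T cell markers, 11 were above 1 CPM (counts brought to a common library size with TMM factors) in every library, and the exception was CD2. Markers of myeloid cells stayed under 1 CPM in every library. Of the erythroid markers HBA1 rose in dE9 (log2 fold change 3.68, adjusted p = 0.0239), at 15.1, 21.1 and 0.847 CPM in the dE9 libraries with PMA, while HBB stayed at or near 0. The summed level of 4 fibroblast or endothelial markers was 16.5 to 38.9 CPM over the unstimulated libraries and 16.6 to 98.9 CPM with PMA. PECAM1, the highest of them, rose in dE9 (1.34, adjusted p = 0.0311) and iE9 (1.28, adjusted p = 0.0443), and COL1A2 and PDGFRB stayed under 1 CPM. The part of these markers in the PMA results was not tested. Of 4 B cell markers, CD79A alone passed 1 CPM, and the summed level of the list was 6.95 to 58.3 CPM apart from dE9 with PMA (8.5 to 154 CPM) and iE9, at 38.3 to 120 CPM unstimulated and 206 to 402 CPM with PMA, while MS4A1 was at 0 in 12 libraries and PAX5 in 9. The part of this in the results on iE9 was not tested. HDAC7 transcripts that hold exon 9 made 46.6% and 47.49% of the transcripts that span it in unstimulated WT, and 2.14%, 0.84% and 7.37% in unstimulated dE9. With PMA the shares were 43.08% and 53.76% in WT and 0.0%, 0.68% and 0.0% in dE9. The libraries labelled iE9 gave 58.27%, 51.78% and 74.85% unstimulated and 42.31%, 63.0% and 44.27% with PMA, so the exon 9 share does not separate them from WT with PMA (difference 1.44 percentage points, exact permutation p = 0.9, two-sided). For dE9 against WT the exact p was 0.1 in either condition, and no p below 0.1 can be reached with 3 against 2 libraries. The lines also differed in HDAC7 level. Unstimulated it was 45.7 and 58.1 CPM in WT, 46.8, 59.1 and 53.4 CPM in dE9 and 204, 129 and 172 CPM in iE9. With PMA it was 244 and 238 CPM in WT, 158, 155 and 251 CPM in dE9 and 405, 325 and 322 CPM in iE9. The part of this level in the results was not tested.

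Measured per length, the members were abundant in unstimulated WT. Their summed level was 4704 and 4365 TPM (a share of transcripts, corrected for length) in the WT libraries, 4574, 4732 and 4584 TPM in dE9 and 3566, 3862 and 4049 TPM in iE9. On the same scale CCNB1, the regulatory subunit of the kinase that starts mitosis, was the highest member in unstimulated WT at 311 ± 14.8 TPM (SD, n = 2). BUB3, a subunit of the spindle checkpoint, followed at 309 ± 12.0 TPM, and the difference between these neighbours was smaller than their spread. The lowest members were CENPE, a kinetochore motor, at 8.79 ± 4.39 TPM, and CDC25C, a phosphatase that activates CDK1, at 18.1 ± 3.95 TPM.

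With PMA the summed level was 1495 and 1481 TPM in WT and 1704, 2715 and 2222 TPM in iE9. In dE9 it was 2388, 679 and 523 TPM. All libraries with PMA lay below all unstimulated libraries of their own line. dE9 library 1 lay above both WT libraries with PMA, and dE9 libraries 2 and 3 lay below every other library of the series. Without dE9 library 1 with PMA the fall in dE9 moved by over 1.5 times for 36 of 42 members. The median log2 fold change went to -3.69 and all 42 passed, so dE9 fold changes are given with and without that library. It was singled out by its values for these members, so the results without it follow in part from that choice.

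**Figure D1:**
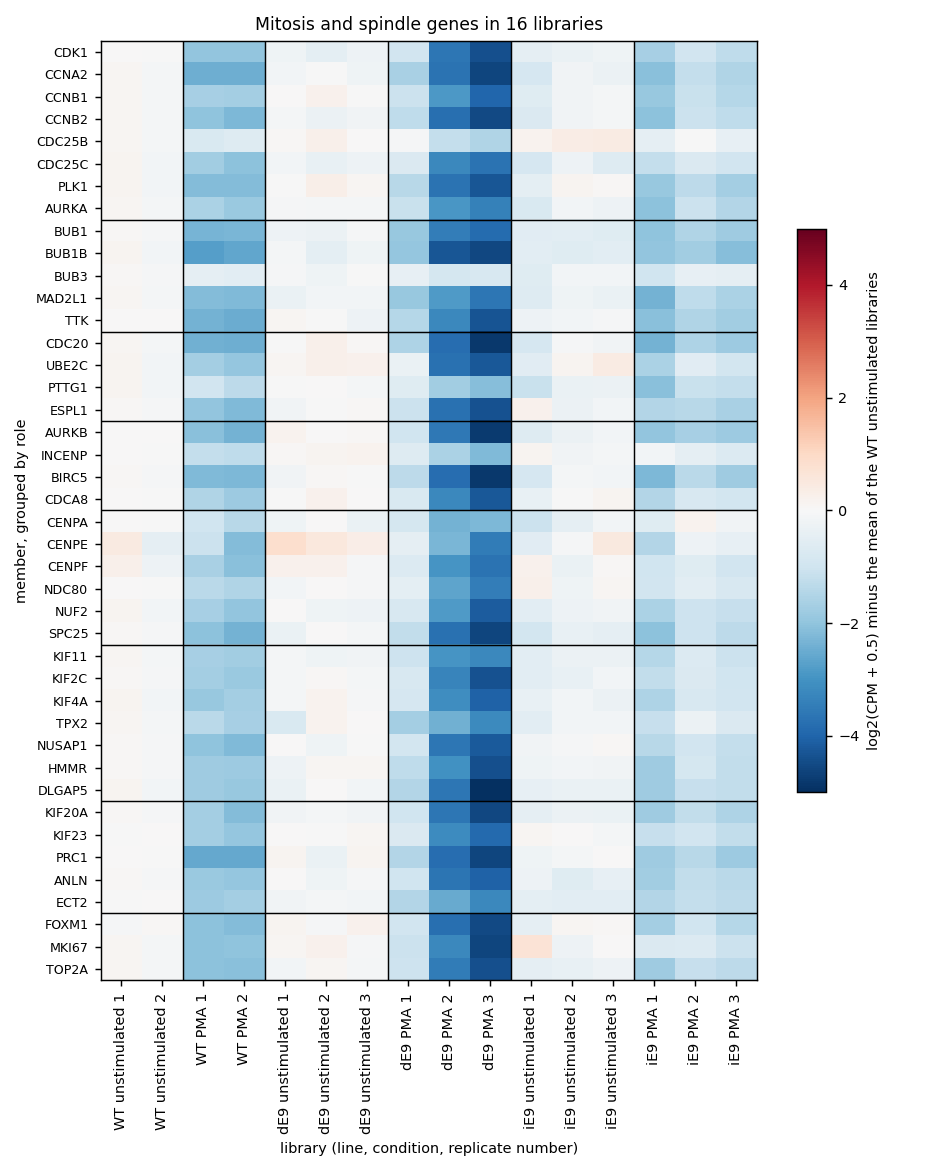
The 42 members (rows, grouped by role) in the 16 libraries (columns), coloured by log2(CPM + 0.5) minus the mean of the 2 unstimulated WT libraries. The 8 libraries with PMA are blue almost throughout, palest in dE9 library 1 and in iE9, and darkest in dE9 libraries 2 and 3, where BUB3 and CDC25B are the palest rows.

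In WT cells the PMA treatment lowered 21 of the 42 members (edgeR quasi-likelihood F test over all 18073 genes tested, Benjamini-Hochberg adjusted p under 0.05). The other 21 did not pass, and 0 rose. Over all genes tested, 11.3% were called lower and 11.1% higher. All 42 fold changes were below 0, with a median log2 fold change of -1.90, against 0.03 over all genes. For all 42 members both PMA libraries lay below both unstimulated ones, which held for 36.0% of genes tested. In dE9, 41 members fell and 0 rose, beside 16.5% of all genes called lower and 17.1% higher, and the median log2 fold change of the members was -2.15. UBE2C, the ubiquitin-conjugating enzyme that works with the anaphase-promoting complex, was the member that missed the threshold there (log2 fold change -1.91, SE 0.72, adjusted p = 0.0536), and without dE9 library 1 it passed (-4.28, adjusted p = 7.49e-07). The dE9 libraries with PMA lay wholly below the unstimulated ones for all 42 members, as for 23.1% of genes. In iE9, 6 members fell (BUB1, BUB1B, MAD2L1, TTK, PLK1 and PRC1) and 0 rose, beside 14.4% of all genes called lower and 12.6% higher. The 6 of 42 members called lower in iE9 are a share near that of all genes. The median was -1.02, and 35 of 42 members showed no overlap, beside 21.2% of genes.

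These counts depend on the spread that is fitted. The test takes 1 spread per gene over all 6 groups, and in these genes the dE9 libraries with PMA differed most among themselves (SD of the summed level 1030 TPM, against 9.9 to 506 TPM in the other groups). Fitted on the WT libraries alone, 42 of 42 members were lower with PMA in WT. When dE9 or iE9 was likewise fitted alone, the dE9 count dropped and the iE9 count rose. The shares of all genes called in these fits are not given here. Without unstimulated WT library 1 or 2 the WT count was 5 and 7, and without WT library 1 or 2 with PMA it was 2 and 3. The iE9 count was 6, 2 and 1 without unstimulated iE9 library 1, 2 or 3 and 1, 3 and 1 without iE9 library 1, 2 or 3 with PMA. With 1 dE9 library left out, the dE9 count stayed between 30 and 42. Nor are the shares of all genes given for the fits with 1 library left out. Libraries of a line that carry the same number deviated together in dE9 and in iE9, and with line and number as a replicate block 38 members were lower in WT, 42 in dE9 and 16 in iE9. In that fit 18.8%, 22.7% and 21.1% of all genes were called lower in WT, dE9 and iE9.

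**Figure D2:**
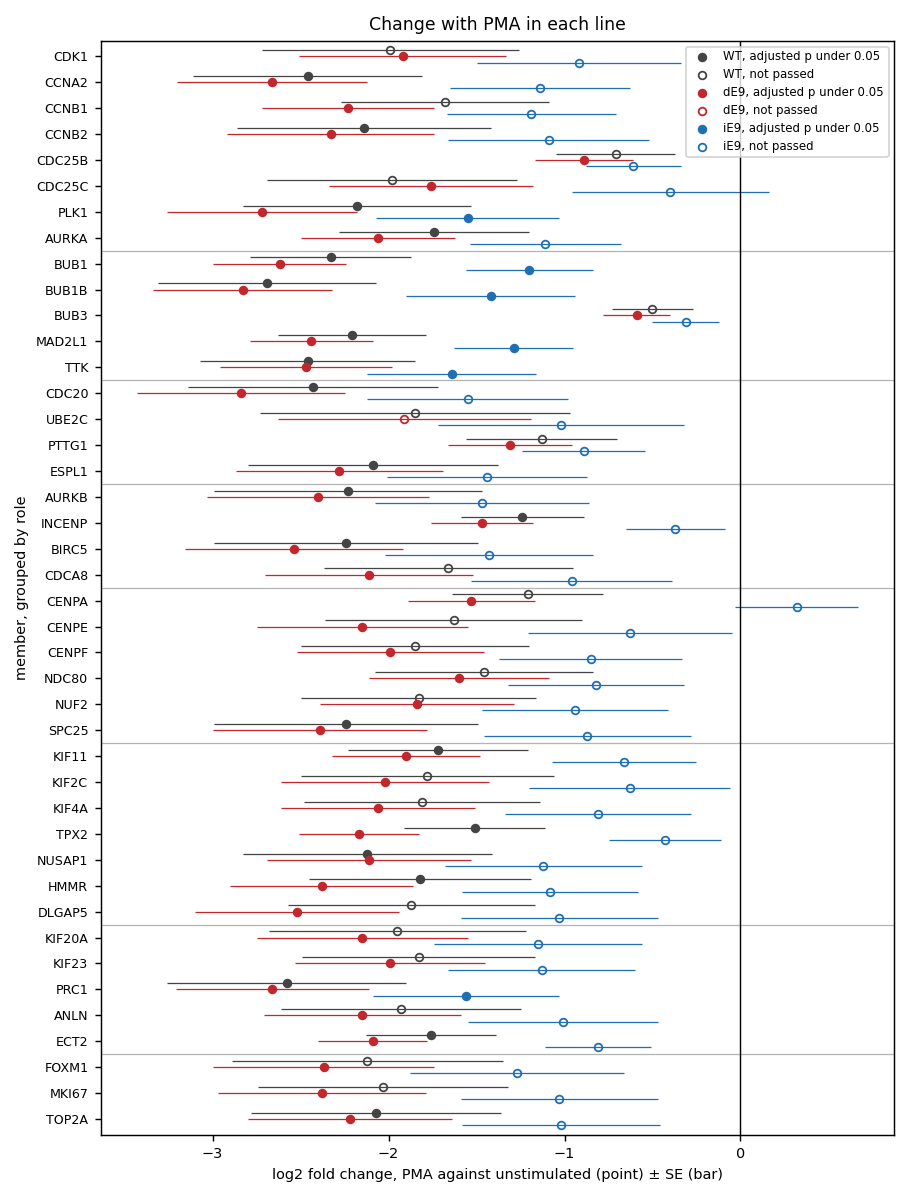
Log2 fold change with PMA against unstimulated cells (points) and its SE (bars) for each member in WT, dE9 and iE9, with filled points where the adjusted p was under 0.05. The WT and dE9 points lie close together between about -1 and -3 apart from BUB3 and CDC25B, the iE9 points lie to the right of them, and CENPA in iE9 is the point above 0.

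Among the 8 genes of entry into mitosis, 4 fell in WT (CCNA2, CCNB2, PLK1 and AURKA), 8 in dE9 and 1 in iE9, with median log2 fold changes of -1.98, -2.14 and -1.10, and -3.59 in dE9 without library 1. CCNB1 (chromosome 5, 69167010 to 69178245, hg38, plus strand) had the highest level of the group in CPM. It measured 330 and 296 CPM in unstimulated WT and 98.7 and 97.1 CPM with PMA. In dE9 it went from 317, 358 and 307 CPM to 147, 42.7 and 19.6 CPM, and in iE9 from 203, 279 and 296 CPM to 83.9, 143 and 115 CPM. No library with PMA reached an unstimulated library of its line, and the fall passed the test in dE9 (log2 fold change -2.23, SE 0.49, adjusted p = 0.00314, and -3.39 without library 1) but not in WT (-1.68, SE 0.59, adjusted p = 0.0548) or iE9 (-1.19, SE 0.48, adjusted p = 0.0796).

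PLK1 (chromosome 16, 23677656 to 23690367, plus strand), the polo-like kinase that drives centrosome maturation and mitotic entry, fell in all 3 lines. Its levels were 223 and 189 CPM in unstimulated WT and 45.2 and 45.6 CPM with PMA. In dE9 they were 205, 253 and 217 CPM and then 77.3, 15.3 and 10.1 CPM, and in iE9 147, 223 and 216 CPM and then 54.2, 83.5 and 62.3 CPM. The groups did not overlap in any line. The log2 fold changes were -2.18 (SE 0.65, adjusted p = 0.0256) in WT, -2.72 (SE 0.54, adjusted p = 0.00149; -4.15 without library 1) in dE9 and -1.55 (SE 0.52, adjusted p = 0.0375) in iE9. CDC25B, a phosphatase that activates CDK1 at the centrosome, moved least in this group in WT (-0.71, adjusted p = 0.144) and fell in dE9 (-0.89, adjusted p = 0.0224; -1.45 without library 1).

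The 5 spindle checkpoint genes held 4 of the 6 calls in iE9. BUB1, BUB1B, MAD2L1 and TTK fell in all 3 lines. BUB1B (chromosome 15, 40161023 to 40221136, plus strand), the checkpoint protein BubR1, had the largest fold change of all members in WT. It measured 208 and 175 CPM unstimulated and 28.1 and 31.3 CPM with PMA in WT, 180, 135 and 166 CPM and then 50.2, 9.44 and 7.68 CPM in dE9, and 134, 126 and 133 CPM and then 47.9, 56.1 and 43 CPM in iE9. The highest PMA library of the series, at 56.1 CPM, was below the lowest unstimulated one, at 126 CPM. The falls were 6.46-fold in WT (log2 -2.69, SE 0.62, adjusted p = 0.00696), 7.13-fold in dE9 (log2 -2.83, SE 0.51, adjusted p = 0.00074; 18.7-fold and log2 -4.22 without library 1) and 2.68-fold in iE9 (log2 -1.42, SE 0.48, adjusted p = 0.0408).

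BUB1 (chromosome 2, 110637698 to 110678114, minus strand), a kinase that recruits checkpoint proteins to kinetochores, went from 299 and 269 CPM to 55.8 and 57.5 CPM in WT. In dE9 it went from 236, 231 and 275 CPM to 76.4, 25.1 and 19.2 CPM, and in iE9 from 193, 198 and 186 CPM to 69.3, 99.6 and 81.9 CPM. The groups were apart in each line, and the iE9 libraries with PMA were all above those of WT. The fold change of BUB1 in dE9 without library 1 was -3.48 on the log2 scale. BUB3 (chromosome 10, 123154277 to 123170467, plus strand), which carries BUB1 and BUB1B to the kinetochore, had the smallest fold change of all members in WT. Its levels were 303 and 275 CPM and with PMA 210 and 200 CPM in WT, 277, 247 and 282 CPM and then 215, 156 and 165 CPM in dE9, and 189, 259 and 265 CPM and then 145, 218 and 212 CPM in iE9. The iE9 groups overlapped. BUB3 fell in dE9 (log2 fold change -0.59, SE 0.19, adjusted p = 0.0266) and did not pass in WT (-0.50, SE 0.23, adjusted p = 0.139) or iE9 (-0.31, SE 0.19, adjusted p = 0.247).

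Of the 4 genes of anaphase and the APC/C, the ubiquitin ligase that triggers chromosome separation, CDC20 and ESPL1 fell in WT, 3 fell in dE9 and 0 in iE9. CDC20 (chromosome 1, 43358955 to 43363203, plus strand), the activator of the APC/C at metaphase, measured 280 and 241 CPM and with PMA 49 and 47.7 CPM in WT. The dE9 values were 255, 312 and 267 CPM and then 89.5, 17.9 and 8.7 CPM, and the iE9 values 145, 249 and 228 CPM and then 49.6, 89.2 and 74 CPM. The groups did not overlap in any line, and the log2 fold changes were -2.43 (SE 0.71, adjusted p = 0.0246), -2.84 (SE 0.59, adjusted p = 0.00208) and -1.55 (SE 0.57, adjusted p = 0.0549). In dE9 without library 1 CDC20 had -4.38. PTTG1 (chromosome 5, 160421822 to 160428744, plus strand), or securin, the inhibitor of separase, went from 129 and 106 CPM to 60.6 and 46.8 CPM in WT. It went from 115, 118 and 109 CPM to 76.2, 35 and 26.5 CPM in dE9, and from 53.6, 93.8 and 96.2 CPM to 26.9, 53.6 and 50.5 CPM in iE9. It fell in dE9 (-1.31, adjusted p = 0.00969; -1.89 without library 1), with -1.13 in WT (adjusted p = 0.0705) and -0.89 in iE9 (adjusted p = 0.0704).

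Of the chromosomal passenger complex, which corrects faulty attachments of chromosomes to the spindle, AURKB, INCENP and BIRC5 fell in WT, all 4 fell in dE9 and 0 in iE9. INCENP (chromosome 11, 62123973 to 62153163, plus strand), the scaffold of the complex, went from 259 and 247 CPM to 110 and 104 CPM in WT. In dE9 it went from 263, 278 and 282 CPM to 160, 83.3 and 53.9 CPM. In iE9 it measured 277, 221 and 235 CPM unstimulated and 227, 183 and 156 CPM with PMA. The iE9 groups overlapped, and every iE9 library with PMA but the lowest was above every PMA library of the other lines. Its log2 fold changes were -1.24 (SE 0.35, adjusted p = 0.02) in WT, -1.47 (SE 0.29, adjusted p = 0.00133; -2.0 without library 1) in dE9 and -0.37 (SE 0.28, adjusted p = 0.355) in iE9. BIRC5 (chromosome 17, 78214186 to 78225636, plus strand), or survivin, went from 191 and 179 CPM to 39.6 and 38.5 CPM in WT, from 164, 193 and 182 CPM to 73.5, 12.9 and 6.1 CPM in dE9, and from 103, 173 and 170 CPM to 39, 72.8 and 53.8 CPM in iE9. The groups were apart in each line, and the fall passed in WT (-2.24, adjusted p = 0.0426) and dE9 (-2.54, adjusted p = 0.0055; -4.24 without library 1) and not in iE9 (-1.43, adjusted p = 0.0874).

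Among 6 centromere and kinetochore genes, SPC25 fell in WT, all 6 fell in dE9 and 0 in iE9. CENPF (chromosome 1, 214603195 to 214664588, plus strand), a large outer kinetochore protein, measured 369 and 266 CPM and with PMA 102 and 73.4 CPM in WT. Its values were 363, 368 and 302 CPM and then 196, 40.5 and 24 CPM in dE9, and 367, 247 and 326 CPM and then 158, 204 and 161 CPM in iE9. NUF2 (chromosome 1, 163266576 to 163355764, plus strand), a subunit of the NDC80 complex that binds microtubules, went from 96.4 and 80.7 CPM to 27.4 and 22.4 CPM in WT, from 90.3, 76.9 and 73.4 CPM to 50.7, 12 and 4.46 CPM in dE9, and from 61.8, 74.9 and 77 CPM to 28.9, 43.2 and 38.9 CPM in iE9. Neither gene overlapped between conditions in any line. CENPF and NUF2 passed in dE9 (adjusted p = 0.00999 and 0.0177) and missed in WT (0.0536 and 0.0621). Without dE9 library 1 their log2 fold changes in dE9 were -3.42 and -3.27.

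CENPA (chromosome 2, 26764289 to 26801067, plus strand), the histone variant that marks the centromere, was the member with a fold change above 0 in iE9. It measured 45.4 and 43.6 CPM in unstimulated WT and 21.8 and 16.8 CPM with PMA. In dE9 it went from 38.7, 45.1 and 34.8 CPM to 23.8, 8.34 and 8.87 CPM. In iE9 it measured 21.1, 32.8 and 40.7 CPM unstimulated and 28.7, 49.8 and 39.6 CPM with PMA, groups that overlap. The log2 fold changes were -1.21 (SE 0.43, adjusted p = 0.0586) in WT, -1.53 (SE 0.36, adjusted p = 0.00443; -2.20 without library 1) in dE9 and 0.32 (SE 0.35, adjusted p = 0.532) in iE9.

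Of 7 spindle motors and microtubule-binding proteins, KIF11, TPX2, NUSAP1 and HMMR fell in WT, all 7 fell in dE9 and 0 in iE9. TPX2 (chromosome 20, 31739271 to 31801805, plus strand), which activates Aurora A on spindle microtubules, measured 380 and 338 CPM and with PMA 140 and 113 CPM in WT. In dE9 the values were 213, 401 and 362 CPM and then 110, 66.7 and 39.4 CPM. In iE9 they were 248, 328 and 323 CPM and then 162, 290 and 217 CPM, which overlap. TPX2 fell in WT (-1.51, SE 0.40, adjusted p = 0.0159) and dE9 (-2.17, SE 0.34, adjusted p = 0.000259; -2.62 without library 1), with -0.43 (SE 0.32, adjusted p = 0.353) in iE9. NUSAP1 (chromosome 15, 41332694 to 41381050, plus strand), which bundles spindle microtubules, went from 232 and 219 CPM to 55.4 and 48 CPM in WT, from 227, 193 and 220 CPM to 119, 18 and 11.8 CPM in dE9, and from 202, 218 and 234 CPM to 85.6, 116 and 99.5 CPM in iE9. Its groups were apart in each line, and its log2 fold changes were -2.12 (adjusted p = 0.0434) in WT, -2.11 (adjusted p = 0.0113) in dE9 and -1.12 (adjusted p = 0.155) in iE9. Without dE9 library 1 the dE9 value was -3.84.

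Of the 5 genes of the midzone and cytokinesis, PRC1 and ECT2 fell in WT, all 5 fell in dE9, and PRC1 fell in iE9. PRC1 (chromosome 15, 90966038 to 90995629, minus strand), which crosslinks the antiparallel microtubules of the midzone, measured 214 and 210 CPM and with PMA 35.2 and 36 CPM in WT. It went from 232, 168 and 231 CPM to 76.5, 14.5 and 8.36 CPM in dE9, and from 184, 196 and 213 CPM to 61.7, 79.8 and 60.2 CPM in iE9. KIF23 (chromosome 15, 69414246 to 69448427, plus strand), the motor of the centralspindlin complex, went from 96.3 and 101 CPM to 29.9 and 25.4 CPM in WT, from 99.8, 96.3 and 106 CPM to 59.1, 10.7 and 6.27 CPM in dE9, and from 106, 99.1 and 93.3 CPM to 43.9, 50.5 and 41.9 CPM in iE9. Both genes were apart between conditions in every line, with log2 fold changes in WT, dE9 and iE9 of -2.58, -2.66 and -1.56 for PRC1 and -1.83, -1.99 and -1.13 for KIF23. KIF23 passed in dE9 alone (adjusted p = 0.0107). Without dE9 library 1 the dE9 values were -4.19 for PRC1 and -3.56 for KIF23.

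MKI67, TOP2A and FOXM1 formed the last group, in which TOP2A fell in WT, all 3 fell in dE9 and 0 in iE9. MKI67 (chromosome 10, 128096659 to 128126385, minus strand), the Ki-67 protein that coats mitotic chromosomes, measured 739 and 656 CPM and with PMA 166 and 174 CPM in WT. In dE9 it went from 741, 808 and 676 CPM to 326, 73.7 and 28.6 CPM, and in iE9 from 1120, 578 and 711 CPM to 419, 434 and 328 CPM. Unstimulated iE9 library 1 held the highest MKI67 level of the 16 libraries. TOP2A (chromosome 17, 40388516 to 40417950, minus strand), the topoisomerase that untangles sister chromatids, went from 661 and 580 CPM to 148 and 146 CPM in WT, from 563, 660 and 585 CPM to 305, 53.8 and 29.3 CPM in dE9, and from 448, 483 and 516 CPM to 180, 280 and 252 CPM in iE9. The groups of both genes were apart in each line. TOP2A passed in WT (-2.07, SE 0.71, adjusted p = 0.047) and MKI67 came just short of it (-2.03, SE 0.71, adjusted p = 0.052). FOXM1, the transcription factor of the late cell cycle, had -2.12 in WT (adjusted p = 0.0596), -2.37 in dE9 (adjusted p = 0.00957) and -1.27 in iE9 (adjusted p = 0.138). In dE9 without library 1 MKI67 had -3.85, TOP2A -3.86 and FOXM1 -4.27.

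dE9 library 1 with PMA stood apart from dE9 libraries 2 and 3 in these genes. Its members were 1.35 to 13.6 times the mean of the other 2 libraries, with a median of 6.28 times, lowest for BUB3 and highest for UBE2C. UBE2C measured 71.0 CPM in library 1 and 6.22 and 4.24 CPM in libraries 2 and 3. All 42 members in library 1 were below the 3 unstimulated dE9 libraries, and 41 of 42, all but TPX2, were above both WT libraries with PMA. In libraries 2 and 3 all 42 members were below both WT libraries with PMA. No share of all genes stands beside these counts, so they do not tell how unusual the members are. Against the mean of unstimulated dE9, the median log2 ratio of the members, computed as log2(CPM + 0.5), was -1.01 in library 1, -3.26 in library 2 and -4.11 in library 3. The corresponding medians were -1.80 and -1.98 in WT and -1.42, -0.73 and -0.93 in iE9.

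The level in library 1 was more than 2 times the mean of libraries 2 and 3 for 41 of the 42 members, for 12 of 13 replication licensing genes (median 3.71 times), 21 of 32 further kinetochore genes (3.37) and 9 of 18 centrosome genes (2.28). It was so for 9 of 19 DREAM, MuvB and E2F factors (1.41), 21.0% of the other genes that were lower with PMA in WT (1.31) and 13.6% of all genes tested (1.0), so the split was shared by other cell cycle genes. Over 2014 other genes that were lower with PMA in WT, the median log2 ratios were -0.89, -1.22 and -1.33 in dE9 libraries 1, 2 and 3, and over 2003 genes that were higher in WT they were 1.05, 1.37 and 1.39. The same medians were -1.17 and -1.18 for the lower genes in WT and -1.09, -0.83 and -0.91 in iE9. These 2014 and 2003 genes were called with a spread that the dE9 libraries with PMA enter. Genes that split between those libraries were thus less likely to be listed, and the comparison with the members is limited by this. The exon 9 share of dE9 library 1 was 0.0%, as its label has it, and its share of mitochondrial counts was 6.39%, beside 6.26% in library 2 and 5.2% in library 3. The part of the library's overall PMA response in the result was not tested.

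**Figure D3:**
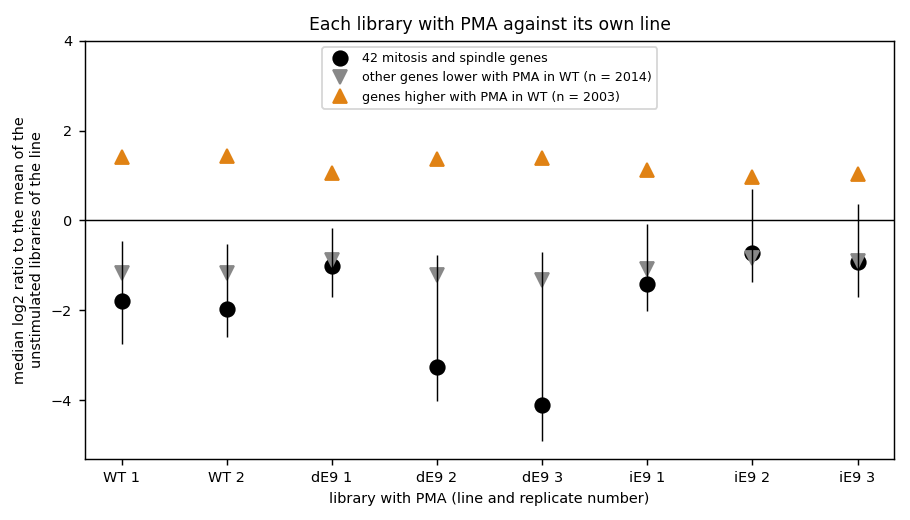
Each of the 8 libraries with PMA against the mean of the unstimulated libraries of its line: the median log2 ratio over the 42 members (circles, with a line from the lowest to the highest member), over the 2014 other genes lower with PMA in WT (down triangles) and over the 2003 genes higher in WT (up triangles). The members spread from -0.73 to -4.11, whereas the lower genes stay between -0.83 and -1.33 and the higher genes between 0.97 and 1.43. Both lists of other genes were called with a spread that these libraries enter, so their narrow range may follow in part from that choice.

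Between unstimulated lines, 0 members were called in any comparison (edgeR, with 0 members at an unadjusted p under 0.05 and 0 called by DESeq2 or limma voom). Of all genes, 1.72% were called in iE9 against dE9, 1.38% in iE9 against WT and 0% in dE9 against WT. The median log2 difference of the members was -0.20 in iE9 against dE9, -0.31 in iE9 against WT and -0.05 in dE9 against WT. TOP2A differed by -0.32 (SE 0.55) and MKI67 by 0.11 (SE 0.56) in iE9 against dE9. In iE9 against WT they differed by -0.36 (SE 0.61) and 0.20 (SE 0.63). In dE9 against WT the differences were -0.04 (SE 0.62) and 0.09 (SE 0.62). The dE9 libraries with PMA enter these SEs. Unstimulated TOP2A did not overlap between iE9 (448, 483 and 516 CPM) and dE9 (563, 660 and 585 CPM), whereas MKI67 did. The summed level was 3566 to 4049 TPM in unstimulated iE9. It was 4574 to 4732 TPM in dE9 and 4365 to 4704 TPM in WT, without overlap with iE9. The share of all genes without overlap is not given here.

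With PMA, TPX2 and CENPA were higher in iE9 than in dE9 and the other 40 members did not pass, beside 2.61% of all genes called. TPX2 differed 3.09-fold (log2 1.63, SE 0.33, adjusted p = 0.0219) and CENPA 2.88-fold (log2 1.52, SE 0.36, adjusted p = 0.0378). All 3 iE9 libraries were above all 3 dE9 libraries for TPX2, CENPA and MKI67, 3 of 42 members, as for 9.69% of genes tested. Both counts are near the shares of all genes. With 1 library left out, the calls of TPX2 and CENPA held in 4 instances and were lost in 8. The median log2 difference of the members was 0.96, against -0.02 over all genes, and 41 of 42 were above 0. The comparison of iE9 with dE9 shares its PMA libraries with the comparisons of each of them with WT.

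In iE9 against WT with PMA, 0 members were called by edgeR, with 3 at an unadjusted p under 0.05 (INCENP, CENPA and TPX2) and 0 by DESeq2 or limma voom, beside 1.12% of all genes. The iE9 libraries were nevertheless all above both WT libraries for 33 of 42 members, beside 19.9% of genes tested, and the median log2 difference was 0.69. MKI67 differed by 1.21 (SE 0.65, adjusted p = 0.422) and TOP2A by 0.69 (SE 0.63, adjusted p = 0.646). In dE9 against WT with PMA, 0 members and 0% of all genes were called by edgeR, with 1 member at an unadjusted p under 0.05, TPX2, and 0 by DESeq2 or limma voom. The median difference was -0.26 on the log2 scale, with MKI67 at -0.25 (SE 0.62) and TOP2A at -0.19 (SE 0.62).

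The PMA response itself was compared between lines as a difference of log2 fold changes. By edgeR 0 members and 0% of all genes were called in dE9 against WT, 0 members and 0% in iE9 against WT, and 0 members and 0% in iE9 against dE9. At an unadjusted p under 0.05 there were 0, 1 and 7 members, and DESeq2 called 2 members in iE9 against dE9. All 42 differences were above 0 in iE9 against WT (median 0.91) and in iE9 against dE9 (median 1.15), and 39 were below 0 in dE9 against WT (median -0.20). The members moved together across the same few libraries, so these signs are not separate results. For the signs and the unadjusted counts, the shares of all genes are not given here. CENPA had the smallest p in iE9 against WT (1.53, SE 0.56, adjusted p = 0.749), and TPX2 in iE9 against dE9 (1.74, SE 0.46, adjusted p = 0.3). MKI67 differed by -0.34 (SE 0.88) in dE9 against WT, 1.01 (SE 0.88) in iE9 against WT and 1.35 (SE 0.79) in iE9 against dE9. The same values for TOP2A were -0.15 (SE 0.88), 1.05 (SE 0.88) and 1.20 (SE 0.79).

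Without dE9 library 1 with PMA, these comparisons changed. That library was singled out by its values for these same members. The counts and adjusted p values without it follow in part from that choice. In iE9 against dE9 with PMA, 40 of 42 members were higher in iE9, beside 3.82% of all genes called higher, and the median log2 difference was 2.43. BUB3 (0.27, adjusted p = 0.501) and PTTG1 (0.51, adjusted p = 0.368) did not pass. BUB1B was then 5.72-fold higher in iE9 (log2 2.52, SE 0.19, adjusted p = 1.4e-05) and NUSAP1 6.75-fold (log2 2.75, SE 0.21, adjusted p = 1.4e-05). In dE9 against WT with PMA, 33 members were lower in dE9, beside 0.955% of all genes, with a median of -1.75, and ANLN, an actin-binding protein of the cleavage furrow, was at 0.253 of its WT level (log2 -1.99, SE 0.21, adjusted p = 0.00102).

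The response to PMA was then larger in dE9 than in WT for 6 members (ANLN, ESPL1, NUSAP1, KIF23, BUB1B and FOXM1), beside 0.123% of all genes, and smaller in iE9 than in dE9 for 39 members, beside 2.23% of all genes. Without dE9 library 2 or 3 in its place, 0 members and 1 member were called in iE9 against dE9 with PMA, and without iE9 library 1, 2 or 3 with PMA 1, 0 and 0. The larger counts therefore rest on leaving out 1 library, and with the 3 libraries kept the calls are 2. For the fits without another library, the shares of all genes are not given here.

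**Figure D4:**
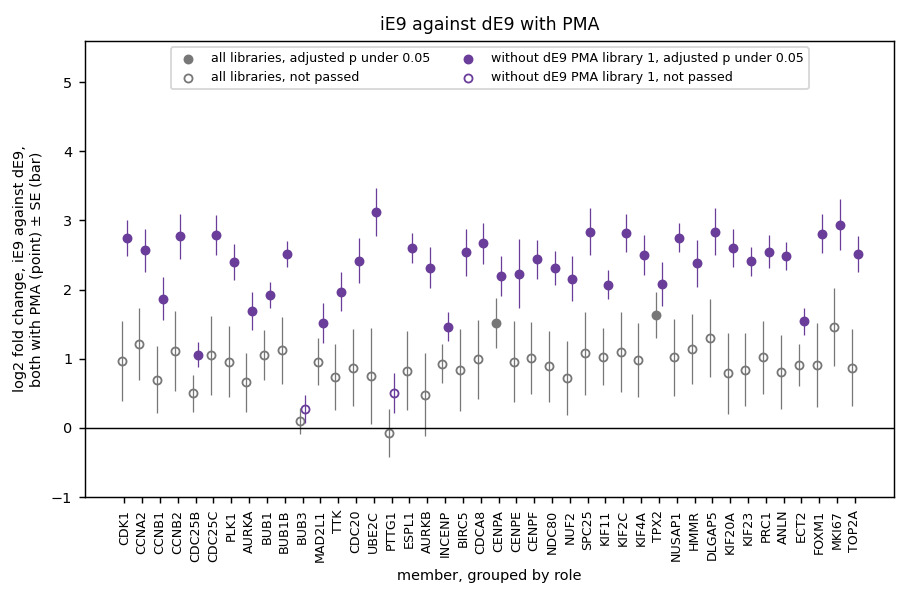
Log2 fold change of iE9 against dE9, both with PMA (points), and its SE (bars) for each member, with all libraries (grey) and without dE9 library 1 (purple), filled where the adjusted p was under 0.05. With all libraries TPX2 and CENPA are filled and most points lie near 1, and without that library 40 points are filled and lie mostly between 1.5 and 3, with BUB3 and PTTG1 near 0.

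The promoters of the members were read because the genes moved together and many carry a late cell cycle element in other systems. RefSeq promoter windows (GRCh38.p14, 250 bases before to 50 after the start) were given for 35 of the 42 members, 45 windows in all. There was no entry for TTK, AURKA, BIRC5, FOXM1, UBE2C, TPX2 and BUB3. Both strands were searched for CCAAT, for the CHR as TTTGAA or TTCGAA, and for a forkhead motif as TGTTTAC or TGTTTGC. The CCAAT box was found in 34 of 45 member windows (75.6%) and in 34.6% of the 35116 windows of the table. The CHR letters were found in 31 member windows (68.9%) and in 16.4% of all windows, and both motifs in 26 (57.8%) and in 6.38%. The forkhead letters were in 2 member windows, of CDK1 and PRC1 (4.44%), and in 7.17% of all windows. A match describes letters and is not evidence of binding.

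The 150 bases just before the start are shown for 6 members, 5′ to 3′, with matches to CCAAT (or ATTGG on the other strand) and to the CHR (or its reverse complement) in capitals. BUB1B had the largest fold change in WT and has a CHR match and no CCAAT. MKI67, the member highest in CPM, has 2 CHR matches, the second of which shares its last base with an ATTGG. CCNB2 has 3 CCAAT boxes in the printed stretch above a CHR match, PLK1 and KIF4A have 1 of each, and CENPA, called between iE9 and dE9, has both.
BUB1B promoter, chr15:40160919-40161068, plus strand: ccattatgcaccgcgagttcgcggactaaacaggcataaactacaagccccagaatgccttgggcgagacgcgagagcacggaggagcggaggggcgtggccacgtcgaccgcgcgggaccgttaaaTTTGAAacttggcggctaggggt
MKI67 promoter, chr10:128126424-128126573, minus strand: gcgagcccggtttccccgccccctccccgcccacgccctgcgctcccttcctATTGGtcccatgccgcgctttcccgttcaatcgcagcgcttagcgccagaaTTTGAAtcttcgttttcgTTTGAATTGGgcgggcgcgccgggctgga
CCNB2 promoter, chr15:59104996-59105145, plus strand: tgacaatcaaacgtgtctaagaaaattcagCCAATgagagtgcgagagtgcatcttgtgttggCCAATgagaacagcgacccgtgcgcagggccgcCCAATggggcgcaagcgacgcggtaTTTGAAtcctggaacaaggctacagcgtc
PLK1 promoter, chr16:23678739-23678888, plus strand: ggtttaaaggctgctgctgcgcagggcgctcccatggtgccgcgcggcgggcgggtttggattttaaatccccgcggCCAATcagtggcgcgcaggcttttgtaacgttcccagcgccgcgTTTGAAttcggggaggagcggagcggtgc
KIF4A promoter, chrX:70289954-70290103, plus strand: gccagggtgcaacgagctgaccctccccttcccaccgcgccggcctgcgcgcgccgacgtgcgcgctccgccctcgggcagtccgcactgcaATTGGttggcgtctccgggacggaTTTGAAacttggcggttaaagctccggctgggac
CENPA promoter, chr2:26785906-26786055, plus strand: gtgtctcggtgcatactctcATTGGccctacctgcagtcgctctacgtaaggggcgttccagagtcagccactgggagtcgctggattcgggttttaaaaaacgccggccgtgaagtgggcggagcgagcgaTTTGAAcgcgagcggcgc

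Positions are counted from the first transcribed base of the RefSeq window as 0. These starts differ from the ends of the GENCODE gene spans given above. The printed stretches of CENPA and PLK1 lie inside those spans, and those of BUB1B, CCNB2 and KIF4A run into them at their downstream ends. The CHR matches in these windows began at -23 in BUB1B, at -47 and -29 in MKI67, at -29 in CCNB2 and PLK1, at -34 in KIF4A and at -18 in CENPA. CCAAT matches began at -120, -87 and -54 in the printed stretch of CCNB2, at -73 in PLK1 and at -58 in KIF4A. KIF2C and CENPE had neither motif in their windows, and their log2 fold changes in WT were -1.78 (adjusted p = 0.0872) and -1.63 (adjusted p = 0.124). Members with a motif also missed the threshold in WT, and whether the motifs go with the size of the fall was not tested.

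Genes that work beside the members were read as lists, whose counts stand beside 11.3%, 16.5% and 14.4% of all genes called lower with PMA in WT, dE9 and iE9. Of the 17 APC/C subunits and partners, 4 fell in WT, 8 in dE9 and 8 in iE9, with median log2 fold changes of -0.45, -0.41 and -0.45. ANAPC1, the largest scaffold subunit, fell in WT (-1.33, adjusted p = 0.000637), dE9 (-1.22) and iE9 (-1.03). UBE2S, the enzyme that elongates ubiquitin chains, fell by similar amounts (-1.63, -1.73 and -1.43), and FBXO5, an APC/C inhibitor, fell by 1.32, 1.88 and 0.94 on the log2 scale.

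Of 19 DREAM, MuvB and E2F factors, 8 fell in WT, 12 fell and 1 rose in dE9 (LIN37, a MuvB subunit, 0.70, adjusted p = 0.0116), and 4 fell and 1 rose in iE9 (RBL2, the pocket protein p130, 0.62, adjusted p = 0.0322). The E2F partners TFDP1 (-1.72, -1.74 and -1.13) and TFDP2 (-1.30, -1.22 and -0.85) and E2F5 (-1.07, -1.27 and -1.37) fell in WT, dE9 and iE9. TFDP2 was also lower in iE9 than in dE9 without PMA, at 229 ± 35.8 and 471 ± 27 CPM (SD, n = 3 each; log2 -1.04, adjusted p = 0.00839), and it was the 1 gene of these lists called there.

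Cohesin and condensin, the rings that hold sister chromatids and compact chromosomes, had 15 of 23 members lower in WT, 18 lower and 1 higher in dE9 (MAU2) and 5 lower and 1 higher in iE9 (NIPBL, the cohesin loader). NCAPD3 and SMC2, subunits of condensin, fell in WT (-1.24 and -1.42), dE9 (-1.38 and -1.73) and iE9 (-0.63 and -0.67), as did STAG1 of cohesin (-1.26, -1.52 and -0.80). Of 32 further kinetochore genes, 18 fell in WT, 25 in dE9 and 7 in iE9. CENPO and CENPX fell in all 3 lines, CENPO with -1.58, -1.99 and -1.04 and CENPX with -1.17, -1.24 and -1.06.

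Of 18 centrosome and centriole genes, 12 fell in WT, 18 in dE9 and 7 in iE9. CKAP5, TUBGCP3 and TACC3, proteins of microtubule growth and nucleation, fell in WT (-1.12, -1.06 and -1.92), dE9 (-1.05, -1.13 and -1.87) and iE9 (-0.78, -0.60 and -1.10). In iE9 against dE9 with PMA, the genes of these lists that were higher included SMC2, SMC1A, CENPQ, SPAG5 and CEP135. SPAG5, a spindle and kinetochore protein, had the largest of these differences at 251 ± 35.2 against 102 ± 36.8 CPM (SD, n = 3 each; log2 1.29, adjusted p = 0.0068).

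Of the kinases and phosphatases around mitotic entry, 13 of 14 were tested, and 6 fell and 1 rose in WT, 9 fell in dE9 and 2 fell in iE9, the last a share (15.4%) near that of all genes. MASTL fell in WT (-1.50) and dE9 (-1.28), WEE1, which holds CDK1 inactive, fell in all 3 lines (-1.80, -2.22 and -1.19), and CDC25A, which activates CDKs, fell in WT (-1.90) and dE9 (-2.07). CDC14A, a phosphatase, was the gene that rose in WT (0.90, adjusted p = 0.0298). Of the CDK inhibitors 6 of 8 were tested, and 1 fell in WT, 3 fell and 1 rose in dE9, and 1 fell and 1 rose in iE9. The 1 of 6 that fell in WT and in iE9 is 16.7%, beside 11.3% and 14.4% of all genes. The gene that fell in WT and iE9 was CDKN3, a phosphatase of CDKs that was singled out after its values were seen (-2.49 and -1.80, adjusted p = 0.0279 and 0.038). CDKN1A, the inhibitor p21, also singled out after its values were seen, measured 2.06 ± 1.42 CPM unstimulated and 16.3 ± 3.63 CPM with PMA in dE9 (SD, n = 3 each), a rise of 2.99 on the log2 scale (adjusted p = 0.000184). The iE9 values were 2.55 ± 0.34 and 40.2 ± 13.7 CPM, a rise of 3.97 (adjusted p = 3.5e-05), and in WT the log2 fold change was 0.89 (adjusted p = 0.243). CDKN2C and CDKN1B fell in dE9 (-1.81 and -0.56), and in WT had -1.70 (adjusted p = 0.0777) and -0.58 (adjusted p = 0.0828).

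The replication licensing genes, which act in G1 and S phase, were taken beside the mitotic ones, and 13 of 13 fell in WT, 13 in dE9 and 5 in iE9. Their median log2 fold changes, -1.94, -2.18 and -0.99, were close to those of the members (-1.90, -2.15 and -1.02). Without dE9 library 1 the dE9 medians were -3.06 for licensing and -2.45 for the further kinetochore genes, beside -3.69 for the members. MCM2, a subunit of the replicative helicase, fell by 2.42, 2.62 and 1.36 on the log2 scale in WT, dE9 and iE9, MCM7 by 1.47, 1.65 and 0.77, and GMNN, an inhibitor of licensing, by 1.94, 2.26 and 1.36.

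**Figure D5:**
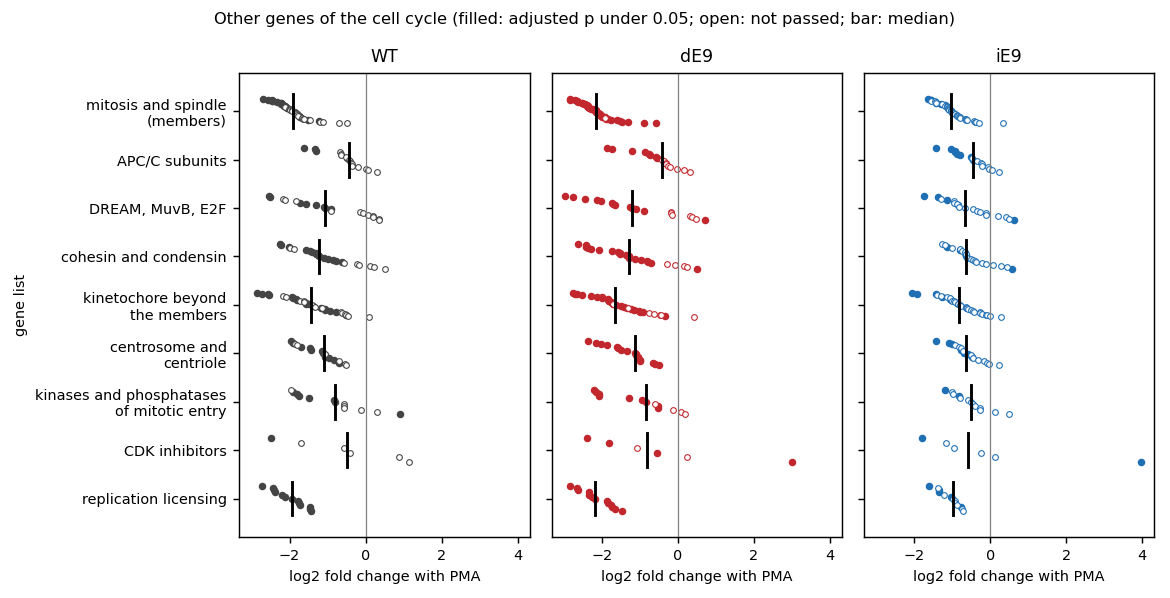
Log2 fold change with PMA of each tested gene (points, filled where the adjusted p was under 0.05) in the members and 8 lists, by line, with the median as a bar. Replication licensing has its median next to that of the members in each line, the APC/C median lies nearest to 0 in each line, and CDKN1A is the point near 3 in dE9 and near 4 in iE9.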

How the data were processed

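PolyA-selected RNA was sequenced for 16 libraries. Per the submitters' processing notes, the tools were Salmon and DESeq2 on hg38, with no version in those notes. Per the file headers, the authors deposited 3 values for every transcript of a library, which are an estimated count, a TPM value and an effective length in bases. The authors' gene TPM table matched gene sums of the transcript TPM to within 0.01 for all 58295 genes, and 0 columns of values were left unused. All 205870 transcripts matched GENCODE release 29.

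Estimated counts were summed per gene, rounded, and tested with edgeR 4.0.16 (quasi-likelihood F test, two-sided, TMM factors, filterByExpr, all 16 libraries, 1 coefficient per group) in R 4.3.3, keeping 18073 of 33304 genes with a count. Every adjusted p of a gene comes from this fit, adjusted over all genes tested, unless another tool or setting is named. Levels in CPM are TMM-scaled, and SE is that of the log2 fold change. The common biological coefficient of variation was 31.8%. Replicates differed beyond sampling noise (lowest chi-square per degree of freedom 7.14). Intervals of counting error are not given, because library spread exceeded it. On counts simulated for 18824 genes with a biological coefficient of variation of 22.4%, below that of the data, the WT comparison with PMA recovered 196 of 200 genes changed 4-fold, with 8 false calls.

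Same-numbered libraries of a line deviated together in dE9 (r = 0.297, 0.305 and 0.24) and iE9 (0.441, 0.226 and 0.19). They did so little in WT (0.073, 2 libraries a group). The numbers were therefore taken to pair libraries within dE9 and iE9, and the block within line applied this to WT as well. The main fit, with its adjusted p values of single genes, takes no account of this pairing. The members, the roles and the lists were chosen with earlier results of these data known. Values in every library are given for the 2 members per role with the highest mean CPM, for those with the largest and smallest fold in WT, and for the members called between lines. From each list, up to 3 genes called in WT with the smallest adjusted p are named, or the 2 with the highest CPM where fewer than 2 were called. The result of 1 gene that this rule names is not reported here. Other list genes (CDKN1A, CDKN3, SPAG5 and those that make up small counts) were named after their values were seen. Alternatives were other normalizations (DESeq2 size factors, upper quartile), DESeq2 1.42.0, limma voom 3.58.1, no filter, effective-length offsets, only the groups compared, replicate blocks, and leaving out each library. The block within line and leaving out the iE9 libraries numbered 1, alone or with dE9 library 1 with PMA, were chosen after seeing the data.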

Additional observations from a re-analysis of the deposited data

How the results depend on the processing

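The direction of each member with PMA in WT, dE9 and iE9 held under every alternative that gave it an adjusted p. What moved was the number of calls. DESeq2 gave no adjusted p for some members, whose direction was not checked there. Counts by DESeq2 cover only the members with an adjusted p. With limma voom 33 members were lower in WT, 12 in iE9, and 4 were called in iE9 against dE9 with PMA, where DESeq2 called 5 and the effective-length offsets and the replicate block over all lines 1 each. With no filter on low counts the counts were 40 in WT, 37 in iE9, 38 in iE9 against dE9 with PMA, 11 in iE9 against WT with PMA, and 27 and 4 for the response in iE9 against dE9 and against WT. Fitted on only the groups compared, they were 42 in WT, 18 in dE9, 34 in iE9, 0 in iE9 against dE9 with PMA and 4 in iE9 against WT with PMA. DESeq2 called 2 members for the response in iE9 against dE9. The replicate block within line gave 38 in WT and 16 in iE9 and changed the dE9 count by 1 only. Without both iE9 libraries numbered 1, 1 member was lower in iE9, and without those and dE9 library 1 with PMA, 42 were called in iE9 against dE9 with PMA and 41 for the response. The cause of these moves was not tested, except that fewer libraries entered the fits named. Apart from the block within line, the share of all genes called in these fits is not given here. A larger count of members may therefore go with more calls over all genes.

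Leaving out 1 library at a time gave 2 to 7 members lower in WT (where a group is then 1 library, assumed to vary like the others), 30 to 42 in dE9 and 1 to 6 in iE9. It gave 0 to 40 in iE9 against dE9 with PMA, 0 to 33 in dE9 against WT with PMA, 0 to 39 for the response in iE9 against dE9 and 0 to 6 in dE9 against WT, each highest without dE9 library 1 with PMA, and 0 throughout elsewhere. Shares of all genes for these fits are given above only for comparisons between lines without dE9 library 1 with PMA. The other counts cannot be set against a share of all genes. Differences of MKI67 and TOP2A that did not pass changed sign. Without both iE9 libraries numbered 1, MKI67 went to -0.2 in iE9 against dE9 and to -0.11 against WT, unstimulated. TOP2A in unstimulated dE9 against WT went to 0.01 with effective-length offsets and 0.13 with the replicate block. With 1 library left out, MKI67 ranged from -0.2 to 0.3 and from -0.11 to 0.39 in unstimulated iE9 against dE9 and against WT, and TOP2A from -0.12 to 0.07 in unstimulated dE9 against WT. In dE9 against WT with PMA the ranges were -1.73 to 0.24 for MKI67 and -1.82 to 0.3 for TOP2A, and for the response -1.83 to 0.16 and -1.79 to 0.34, each lowest without dE9 library 1 with PMA. The exon 9 share of dE9 minus WT with PMA was -61.18 percentage points over protein-coding transcripts alone. Leaving out 1 library gave -45.55 to -42.29 (unstimulated) and -53.54 to -42.85 (PMA) for dE9 minus WT, and 7.98 to 19.51 and -5.13 to 6.78 for iE9 minus WT. With at least 25 counts of every member in every library, depth set no limit on detection.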

Other observations

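For 7 of the 42 members (CCNB1, CCNB2, CDC25B, CENPF, KIF2C, HMMR and ECT2) the leading annotated transcript took a smaller mean share of the gene's TPM with PMA in all 3 lines, and for 5 (CCNA2, CENPE, NDC80, NUF2 and DLGAP5) a larger one. These are 17.1% and 12.2% of the 41 members with more than 1 annotated transcript, beside 19.0% and 15.1% of 14606 tested genes, so the counts are near the background. For ECT2, the exchange factor that starts the contractile ring, ECT2-201 made 75.4% ± 0.257 of the gene in unstimulated WT and 54.1% ± 5.89 with PMA (SD, n = 2 each), 78.0% ± 3.29 and 40.9% ± 13.0 in dE9, and 66.9% ± 7.44 and 55.4% ± 17.3 in iE9 (n = 3 each). The WT and dE9 groups did not overlap, and the iE9 groups did. For CDC25B, CDC25B-205 made 46.9% ± 2.27 and 30.4% ± 8.24 in WT, 44.1% ± 0.826 and 26.7% ± 29.5 in dE9, and 48.6% ± 7.53 and 23.9% ± 15.7 in iE9. Its dE9 groups overlapped. ECT2 and CDC25B were picked after the shares were seen, no test was run, and shares of a gene with few counts, as in dE9 libraries 2 and 3 with PMA, are imprecise.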
